A study of Mus musculus with 25 samples.

Results

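Muscle stores and moves chemical energy with a set of enzymes that differ in form from those of other tissues, and 9 genes for such enzymes were followed here in cultured mouse myoblasts. The genes were Gatm, Ckm and Ckb (creatine), Ak1 and Ampd3 (adenine nucleotides), Pygm (glycogen), Eno3 and Pgam2 (glycolysis) and Car3 (carbon dioxide and bicarbonate). Every probe set of the 3 Affymetrix chip types U74Av2, U74Bv2 and U74Cv2 whose single annotated gene symbol was one of these was taken. This gave 16 probe sets of 36701 and 9 genes of 15964, and 13 of the 16 probe sets passed the filter on low signals, with at least 1 for each gene. The genes lie on mouse chromosomes 2 (Gatm, Ak1), 3 (Car3), 7 (Ckm, Ampd3), 11 (Eno3, Pgam2), 12 (Ckb) and 19 (Pygm), by the RefSeq annotation of GRCm38.p6.

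The study compared growing myoblasts derived from muscle satellite cells, the stem cells of adult skeletal muscle, of 3 genotypes: MyoD-/-, which lack the myogenic transcription factor MyoD, p53-/-, which lack the tumour suppressor p53, and wild type. Its labels ask which genes lie downstream of both factors in these cells. Each genotype had samples A, B and C, hybridised to U74Av2 (9 arrays), U74Bv2 (7 arrays, with 1 for p53-/-) and U74Cv2 (9 arrays). The cells had been purified by preplating and serial passage, and all were kept as growing cultures on collagen, in Ham's medium supplemented with bFGF (4 ng/ml) and fetal calf serum (20%). The stated purity was above 98% for each genotype, but it was judged by desmin, Myf5 and MyoD in wild type and by Myf5 and c-met in both knockouts, and the RNA of p53-/- cells is labelled as prepared with Trizol x2. The sources used here do not give strain, age, sex or the design of the deleted alleles. Nor do the labels say whether A, B and C were separate animals or cultures, so the p-values below measure only the spread between these samples, and 3 arrays a group limit the precision.

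Creatine is made in 2 enzymatic steps, of which Gatm catalyses the first, and creatine kinases (Ckm in muscle, Ckb in brain and in immature muscle) pass phosphate between ATP and creatine. Adenylate kinase, encoded by Ak1, interconverts ATP, ADP and AMP, and AMP deaminases such as Ampd3, the form first known from red blood cells, turn AMP into IMP. Glycogen phosphorylase of muscle, Pygm, frees glucose units from glycogen, and phosphoglycerate mutase 2 (Pgam2) and enolase 3 (Eno3) are the muscle forms of consecutive glycolytic enzymes. Carbonic anhydrase 3, encoded by Car3, is abundant in slow muscle fibres. Several of these genes are switched on when myoblasts differentiate, and E boxes (CANNTG), of which CAGCTG is a form that MyoD binds, and MEF2 sites are known elements of muscle promoters.

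The upstream promoter windows of 4 of the genes are shown because MyoD is one of the deleted factors. These 4 genes cover only some of the patterns below: Pgam2, Pygm and Gatm were lower in both knockouts, and Ckm was called in neither. Each is the 250 bases before the annotated RefSeq start site in GRCm38.p6, 5′ to 3′ on the gene's strand, with matches to CANNTG and to the MEF2 consensus in capitals.
Pgam2 (chr11:5803797-5804046, minus strand): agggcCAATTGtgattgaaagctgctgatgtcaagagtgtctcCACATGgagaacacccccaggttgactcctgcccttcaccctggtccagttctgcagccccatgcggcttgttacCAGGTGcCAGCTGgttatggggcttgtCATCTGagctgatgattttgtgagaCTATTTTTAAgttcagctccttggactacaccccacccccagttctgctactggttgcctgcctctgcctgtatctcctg
Pygm (chr19:6384158-6384407, plus strand): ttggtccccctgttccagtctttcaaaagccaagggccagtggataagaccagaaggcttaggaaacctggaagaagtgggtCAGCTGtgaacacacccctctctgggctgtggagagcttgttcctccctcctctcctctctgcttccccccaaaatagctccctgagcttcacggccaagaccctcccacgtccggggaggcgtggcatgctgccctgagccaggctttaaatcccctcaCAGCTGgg
Gatm (chr2:122611278-122611527, minus strand): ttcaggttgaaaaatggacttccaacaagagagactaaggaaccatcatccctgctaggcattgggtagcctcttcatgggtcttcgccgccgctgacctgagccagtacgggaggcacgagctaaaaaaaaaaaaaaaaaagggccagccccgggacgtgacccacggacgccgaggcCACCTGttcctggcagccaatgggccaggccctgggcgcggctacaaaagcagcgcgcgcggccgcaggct
Ckm (chr7:19410844-19411093, plus strand): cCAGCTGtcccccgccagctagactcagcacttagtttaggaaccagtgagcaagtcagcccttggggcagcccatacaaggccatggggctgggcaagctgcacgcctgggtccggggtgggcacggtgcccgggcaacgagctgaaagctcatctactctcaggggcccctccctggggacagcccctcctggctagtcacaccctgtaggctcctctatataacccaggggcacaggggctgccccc

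The Pgam2 window held 5 matches to CANNTG, 1 of them CAGCTG, and 1 match to the MEF2 consensus. The Pygm window held 2 matches to CANNTG, both CAGCTG, starting 168 and 8 bases before the start site. The Gatm window held 1 match to CANNTG, with the letters CACCTG, and the Ckm window held 1, which was CAGCTG. Among windows not shown, those of Ak1 start sites 1 and 2 (of 4) each held 1 CAGCTG, and the Ckb window held 1 match to the MEF2 consensus. No window of Ampd3 or Eno3 held CAGCTG or the MEF2 consensus. Other forms of CANNTG were present in the Eno3 window and at start sites 1 and 2 of Ampd3, among them CAGGTG at start site 2. Of 32851 RefSeq promoter windows of the same length, searched on both strands, 66.2% held CANNTG, 12.2% held it at least 3 times, 13.0% held CAGCTG and 2.92% held the MEF2 consensus. Every CAGCTG is also a CANNTG and was counted under both. RefSeq windows matched 8 of the 9 genes, with 13 start sites among them, and a match is a description of the letters, not of a bound site.

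**Figure D1:**
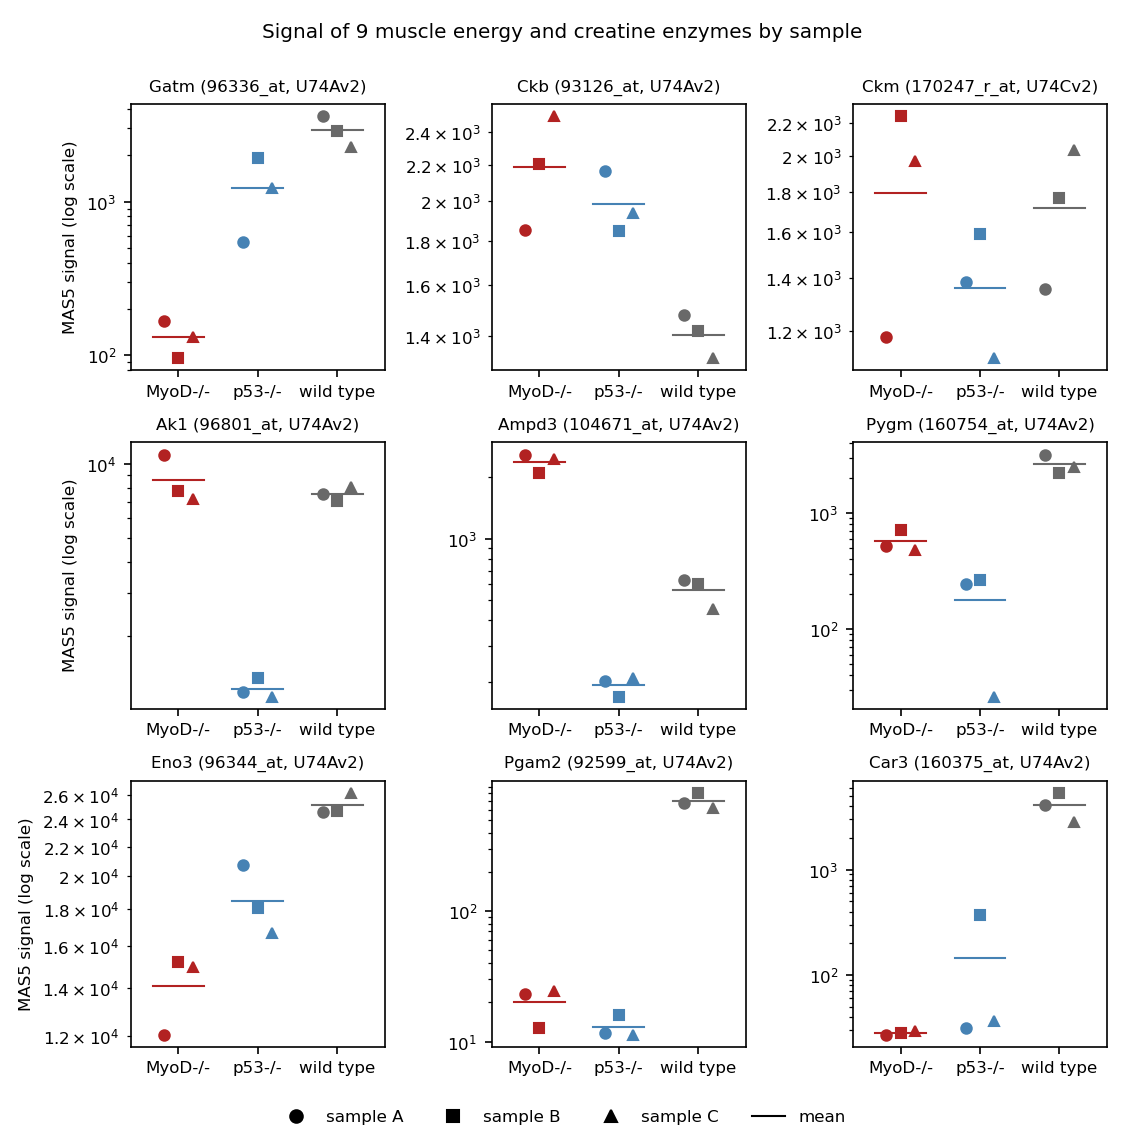
MAS5 signal (log axis, a scale of its own in each panel) of the probe set that stood for each of the 9 enzyme genes, in samples A (circle), B (square) and C (triangle) of MyoD-/-, p53-/- and wild-type myoblasts; lines are means over 3 samples. Pgam2 and Car3 lay far below wild type in both knockouts, Ampd3 was highest in MyoD-/- and lowest in p53-/- cells, and Ak1 was low in p53-/- cells.

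In MyoD-/- myoblasts, 7 of the 9 genes differed from wild type at an adjusted p under 0.05, with 5 lower (Car3, Gatm, Pgam2, Pygm and Eno3) and 2 higher (Ampd3 and Ckb). In p53-/- myoblasts, 7 of the 9 also differed from wild type and all 7 were lower (Car3, Pygm, Pgam2, Ak1, Gatm, Ampd3 and Eno3). Among all genes tested, 13.0% were called in the MyoD-/- comparison (6.14% higher, 6.82% lower) and 12.6% in the p53-/- comparison (6.06% higher, 6.52% lower). The median log2 fold change of the 9 genes was -0.84 in MyoD-/- and -1.33 in p53-/- cells, against -0.00 and -0.01 over all genes tested in the same comparisons. These counts and medians include Pgam2 and Car3, which could pass the filter on low signals only with wild-type arrays. A difference from wild type was thus built into their being tested. Of the other genes in MyoD-/- cells, Gatm, Pygm and Eno3 were lower, Ampd3 and Ckb were higher, and Ckm (0.03) and Ak1 (0.17) were not called. Both comparisons use the same wild-type arrays and are therefore not independent of each other. Compared directly, MyoD-/- and p53-/- cells differed in 4 of the 9 genes, where 16.1% of all genes were called (7.66% higher, 8.44% lower): Ampd3, Ak1 and Pygm were higher and Gatm was lower in MyoD-/- cells. The samples of the 2 genotypes compared did not overlap for 7 genes in MyoD-/- against wild type, 8 in p53-/- against wild type and 6 in MyoD-/- against p53-/-, beside 31.5%, 34.5% and 34.6% of all genes.

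Across alternative settings, the number of these genes called was between 6 and 7 for MyoD-/- against wild type, between 5 and 8 for p53-/- against wild type and between 3 and 5 for MyoD-/- against p53-/-. With scan day as a block, 7 were called in MyoD-/- against wild type, 8 in p53-/- against wild type and 3 in MyoD-/- against p53-/-. On U74Av2, where the representative probe sets of 8 of the genes lie, 8 of the 9 arrays were scanned on one day and the array of MyoD-/- sample A on another. Without that sample, which leaves a single scan day on that chip type, the 3 counts were the same as with the block. On that chip type the sameness was set in advance, since a block for a day with a single array takes up that array. Both fits then give the same estimates, so the second is not a further check. The numbers of alternatives given below count both.

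**Figure D2:**
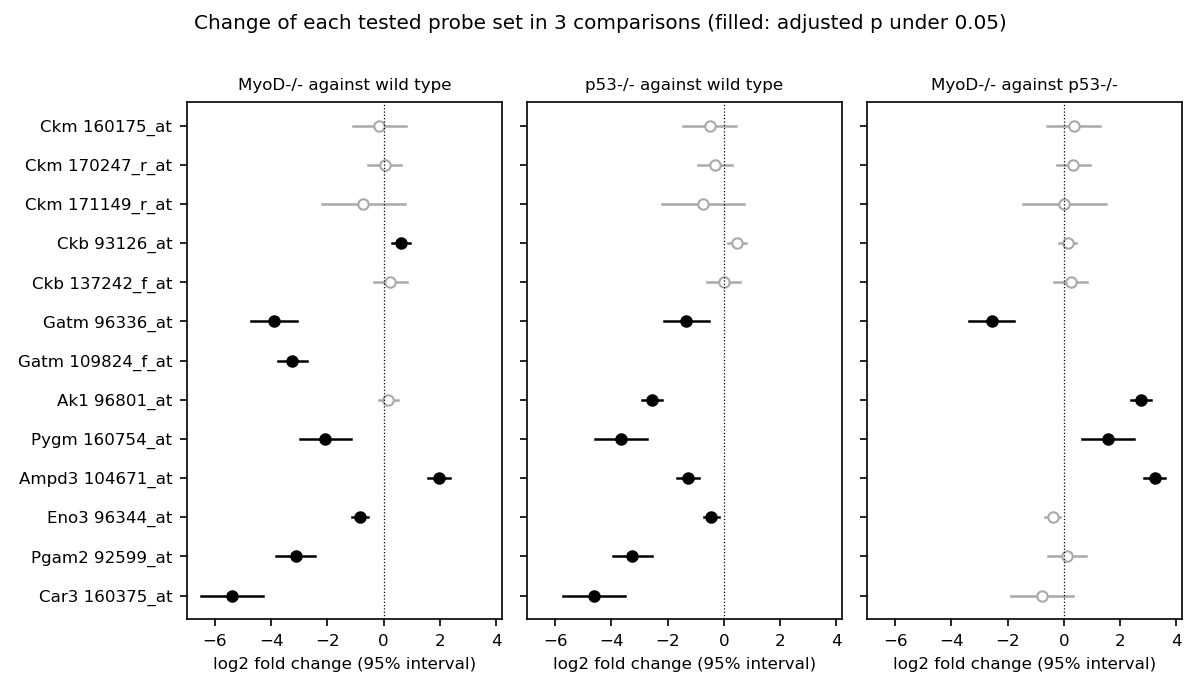
Log2 fold change with its 95% interval for each of the 13 tested probe sets in the 3 comparisons, on the log2(signal + offset) scale; filled black points passed an adjusted p under 0.05 and open grey ones did not. The U74Bv2 probe set of Gatm has no value in the comparisons with p53-/-, which had 1 array there.

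Among the creatine enzymes, Gatm fell most in MyoD-/- cells. Its U74Av2 probe set 96336_at gave 167.0, 94.9 and 130.6 in MyoD-/- samples A, B and C, 541.7, 1923.8 and 1224.9 in p53-/- samples, and 3596.3, 2867.2 and 2269.9 in wild-type samples. All 9 values fall in 3 separate ranges, with MyoD-/- at the bottom and p53-/- between. The log2 fold change was -3.90 ± 0.36 (SE, n = 3 each; 15.0-fold lower, adjusted p = 0.000117) for MyoD-/- against wild type and -2.57 ± 0.36 (5.94-fold lower, adjusted p = 0.00141) for MyoD-/- against p53-/-.

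For p53-/- against wild type the Gatm change was -1.33 ± 0.36 (2.52-fold lower, adjusted p = 0.0426), and this call held in 8 of 22 alternative settings. Leaving out a sample ended it in 7 of 9 cases: the adjusted p was 0.0915 and 0.0900 without p53-/- A and C, 0.138, 0.104 and 0.0584 without wild type A, B and C, and 0.0537 and 0.0594 without MyoD-/- B and C, which share the estimate of the spread. The second Gatm probe set, 109824_f_at on U74Bv2, had signals of 339.1, 228.7 and 173.9 in MyoD-/- samples and 4467.3, 3397.4 and 2914.5 in wild-type samples. It was lower in MyoD-/- cells by a log2 fold change of -3.25 ± 0.22 (adjusted p = 6.14e-05), so both probe sets gave the same direction. The lone p53-/- array of that chip type read 898.1, below all 3 wild-type values and above all 3 MyoD-/- values.

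Ckm, the muscle creatine kinase, was not called in any comparison by any of its 3 tested probe sets. Its representative, 170247_r_at on U74Cv2, had signals of 1178.4, 2242.4 and 1968.9 in MyoD-/- samples, 1385.5, 1591.7 and 1108.5 in p53-/- samples, and 1354.6, 1767.1 and 2032.5 in wild-type samples. The 3 genotypes overlapped throughout. The 95% interval of the log2 fold change ran between -0.56 and 0.63 for MyoD-/- against wild type and between -0.91 and 0.29 for p53-/- against wild type. For this probe set alone, that bounds but does not exclude a change. On U74Av2, 160175_at read 276.1, 325.5 and 496.4 in MyoD-/- samples, 346.1, 512.1 and 87.3 in p53-/- samples, and 450.5, 337.9 and 434.6 in wild-type samples, with p53-/- C standing alone at the bottom. The third tested probe set, 171149_r_at on U74Cv2, scattered within every genotype, with 145.0 to 1341.9 in MyoD-/-, 256.5 to 1201.0 in p53-/- and 661.6 to 1871.6 in wild-type samples. The 95% intervals against wild type were wider by 160175_at (-1.09 to 0.78 in MyoD-/-, -1.44 to 0.43 in p53-/-). They were widest by 171149_r_at (-2.19 to 0.75 in MyoD-/-, -2.21 to 0.72 in p53-/-). The fourth, 161569_f_at, did not pass the filter and lay between 50.1 and 120.5 on all arrays.

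Ckb, the creatine kinase of brain and immature muscle, was higher in MyoD-/- cells. Its U74Av2 probe set 93126_at gave 1849.4, 2204.4 and 2498.9 in MyoD-/- samples, 2164.4, 1846.1 and 1936.0 in p53-/- samples, and 1478.2, 1417.8 and 1320.0 in wild-type samples. Every knockout value lay above every wild-type value, and the knockouts overlapped each other. The log2 fold change was 0.60 ± 0.14 (1.52-fold, adjusted p = 0.0218) for MyoD-/- and 0.48 ± 0.14 (1.39-fold, adjusted p = 0.0617) for p53-/- against wild type. The MyoD-/- call was lost without MyoD-/- B (adjusted p = 0.0676) or C (0.0825) and without wild type A (0.0514), B (0.0683) or C (0.0680), and the p53-/- comparison passed the threshold in 5 of 22 alternatives, with an adjusted p of 0.0377 without MyoD-/- A. The Ckb probe set on U74Cv2, 137242_f_at, read 582.9 to 936.5 in MyoD-/-, 540.0 to 664.7 in p53-/- and 508.1 to 695.4 in wild-type samples and was not called in any comparison, with adjusted p between 0.641 and 0.997.

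**Figure D3:**
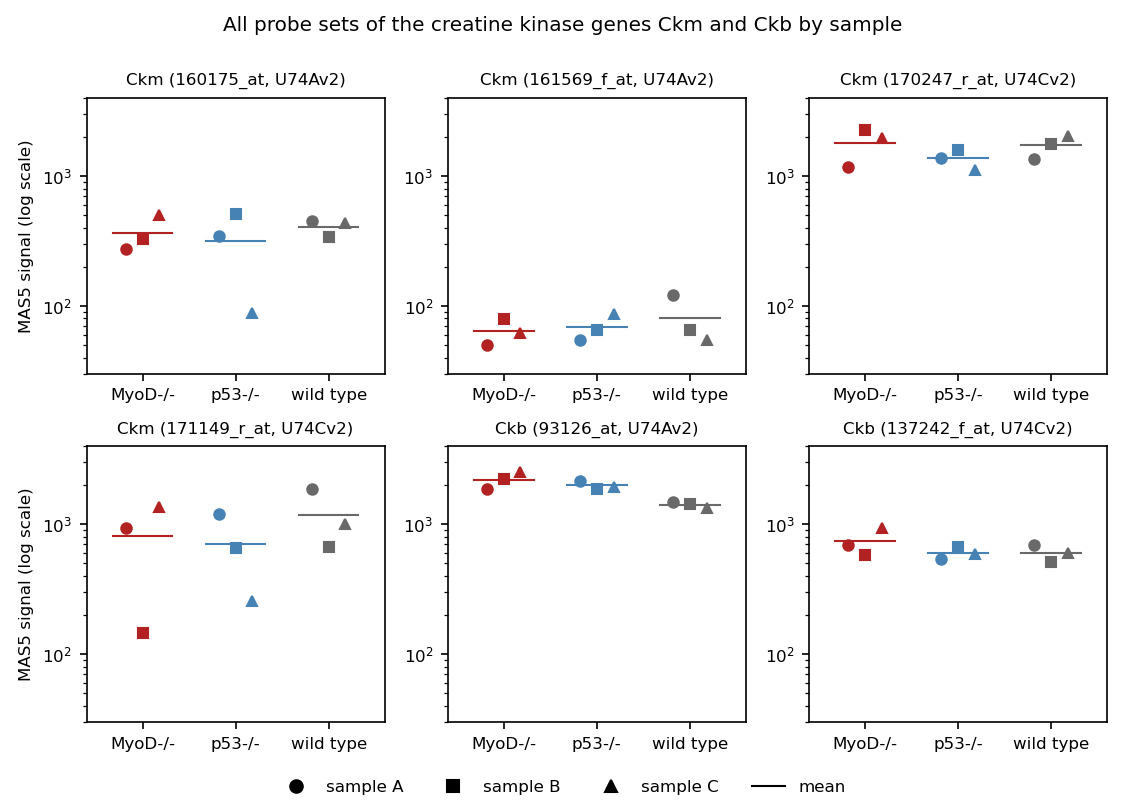
MAS5 signal (log axis, the same in all panels) of the 4 Ckm and 2 Ckb probe sets by sample in MyoD-/-, p53-/- and wild-type myoblasts, with lines at the mean. The genotypes overlap in every Ckm panel, and the Ckb probe set 93126_at is the one whose knockout samples all lie above wild type.

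Within an array, the log2 difference between Ckm (160175_at) and Ckb (93126_at) was -2.40 ± 0.19 in MyoD-/- and -2.62 ± 1.0 in p53-/- cells, and -1.64 ± 0.21 in wild type (SD, n = 3 each). Against wild type the MyoD-/- value changed by -0.76 on the log2 scale, with no overlap of samples (exact two-sided permutation p = 0.1, the smallest that 3 against 3 allows; 0.15 after adjustment over 9 such tests). Against wild type the p53-/- difference was -0.98 (exact permutation p = 0.2, adjusted 0.257), with p53-/- C at -3.70 against -2.43 and -1.72 in A and B. The probe sets of this pair were chosen after their values were seen, since the representatives of Ckm and Ckb lie on different chip types, and such a difference shows unequal change, not the level of one kinase relative to the other.

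Ak1, the cytosolic adenylate kinase, fell in p53-/- cells. The signal of 96801_at was 10886.8, 7744.6 and 7204.6 in MyoD-/- samples, 1190.1, 1347.5 and 1138.9 in p53-/- samples, and 7507.6, 7040.3 and 8036.2 in wild-type samples. All p53-/- values were far below all others, and MyoD-/- overlapped wild type. The log2 fold change was -2.56 ± 0.16 for p53-/- against wild type (5.88-fold lower, adjusted p = 2.87e-05) and 2.73 ± 0.16 for MyoD-/- against p53-/- (6.62-fold higher, adjusted p = 8.21e-06). For MyoD-/- against wild type it was 0.17 ± 0.16 (95% interval -0.18 to 0.52, adjusted p = 0.591), and -0.01 without MyoD-/- A, the sample with the highest value.

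Ampd3, an AMP deaminase, was the member that moved in opposite directions. Probe set 104671_at read 2580.4, 2108.3 and 2467.3 in MyoD-/- samples, 202.2, 169.6 and 208.4 in p53-/- samples, and 631.1, 599.8 and 456.5 in wild-type samples. The 3 genotypes occupied 3 ranges with no overlap, MyoD-/- on top and p53-/- at the bottom. Ampd3 rose 3.91-fold in MyoD-/- cells (log2 1.97 ± 0.17, adjusted p = 7.94e-05) and fell 2.40-fold in p53-/- cells (log2 -1.27 ± 0.17, adjusted p = 0.00198), each against wild type. Set directly against p53-/-, MyoD-/- cells had 9.41-fold more (log2 3.23 ± 0.17, adjusted p = 5.11e-06), and these 3 calls held in all 22 alternatives run for each.

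Pygm, the muscle glycogen phosphorylase, was lower in both knockouts. The signal of 160754_at was 517.9, 717.9 and 481.9 in MyoD-/- samples, 242.1, 264.3 and 26.1 in p53-/- samples, and 3180.2, 2220.1 and 2480.3 in wild-type samples. The genotypes did not overlap, with p53-/- lowest and its sample C far under A and B. The log2 fold change was -2.08 ± 0.41 in MyoD-/- cells (4.22-fold lower, adjusted p = 0.00936) and -3.65 ± 0.41 in p53-/- cells (12.6-fold lower, adjusted p = 0.000943), and -3.06 without p53-/- C (adjusted p = 0.000295). With no offset the MyoD-/- call missed the threshold (adjusted p = 0.0795).

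Directly compared, Pygm was 2.98-fold higher in MyoD-/- than in p53-/- cells (log2 1.58 ± 0.41, adjusted p = 0.0306), a call that held in 15 of 22 alternatives. It was lost without MyoD-/- A (adjusted p = 0.0585), B (0.106) or C (0.0564), and the log2 value was 0.98 without p53-/- C (adjusted p = 0.0230). A second Pygm probe set, 171430_at on U74Cv2, did not pass the filter and stayed between 13.5 and 163.8. Relative to Pygb (97489_at), the brain form of the enzyme, Pygm was lower within an array by a log2 difference of -2.42 in MyoD-/- and -3.47 in p53-/- cells against wild type, with no overlap (exact two-sided permutation p = 0.1 in both, adjusted 0.15); this pair too was set up after the values were seen.

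Pgam2, the muscle phosphoglycerate mutase, gave signals near the bottom of the array in both knockouts. Probe set 92599_at read 23.1, 12.7 and 24.3 in MyoD-/- samples, 11.6, 15.9 and 11.3 in p53-/- samples, and 678.2, 807.5 and 613.1 in wild-type samples. The knockout values lay at the 4.3rd to 9.7th percentile of their arrays and the wild-type values at the 51.4th to 57.6th. The log2 fold change was -3.13 ± 0.31 in MyoD-/- cells (8.78-fold lower, adjusted p = 0.000147) and -3.25 ± 0.31 in p53-/- cells (9.54-fold lower, adjusted p = 0.000493), on the scale of log2(signal + 66.98). That offset shrinks changes of weak signals: with no offset the values were -5.17 in MyoD-/- and -5.76 in p53-/- cells. The probe set passed the filter on low signals through the wild-type arrays alone, so a difference from wild type was built into its being tested, and neither fold is an exact ratio. With no filter the adjusted p was 2.65e-05 in MyoD-/- and 2.75e-05 in p53-/- cells. The knockouts overlapped each other (MyoD-/- against p53-/-, log2 0.12, 95% interval -0.56 to 0.80).

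Pgam1, the form of this mutase found in most tissues, did not fall with Pgam2. The log2 difference of Pgam2 from Pgam1 (160091_at) within an array was lower in all 3 MyoD-/- and all 3 p53-/- samples than in every wild-type sample (exact two-sided permutation p = 0.1 for each, the smallest possible; adjusted 0.15). Its size is not given, because all knockout Pgam2 signals lay under the offset, which then sets the value and hides the spread. Because Pgam2 passed the filter through the wild-type arrays alone, the separation from wild type was built into the testing of this pair. The permutation test therefore adds no support for it. Pgam1 itself averaged 17186.4 ± 1149.9 in MyoD-/-, 18204.0 ± 327.0 in p53-/- and 12755.6 ± 1035.7 in wild-type samples (SD, n = 3 each). It was higher in MyoD-/- (log2 0.43 ± 0.10, adjusted p = 0.0202) and in p53-/- cells (0.51 ± 0.10, adjusted p = 0.0101) than in wild type.

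Eno3, the muscle enolase, changed least among the genes that fell in both knockouts and stayed among the strongest signals. The signal of 96344_at was 12039.5, 15181.4 and 14980.4 in MyoD-/- samples, 20771.9, 18094.2 and 16662.3 in p53-/- samples, and 24583.9, 24682.5 and 26142.8 in wild-type samples. Its 3 ranges did not overlap, and all lay at or above the 97.2nd percentile. Eno3 was 1.79-fold lower in MyoD-/- than in wild-type cells (log2 -0.84 ± 0.12, adjusted p = 0.00146).

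In p53-/- cells Eno3 was 1.36-fold lower (log2 -0.45 ± 0.12, adjusted p = 0.0415), which held in 12 of 22 alternatives. That call was lost without p53-/- B (adjusted p = 0.0947) or C (0.132), without wild type A (0.0914), B (0.0987) or C (0.108), and without MyoD-/- B (0.0502) or C (0.0536). MyoD-/- against p53-/- gave a log2 fold change of -0.40 ± 0.12 (adjusted p = 0.0565) and passed the threshold in 2 of 22 alternatives.

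Car3, carbonic anhydrase 3, was lower in both knockouts. Probe set 160375_at read 27.1, 28.4 and 29.7 in MyoD-/- samples, 31.7, 367.9 and 36.5 in p53-/- samples, and 4129.5, 5349.8 and 2846.2 in wild-type samples. The knockout values lay far below wild type, with p53-/- B about one order of magnitude above the other knockout samples. The log2 fold change was -5.41 ± 0.49 in MyoD-/- cells (42.4-fold lower, adjusted p = 0.000102) and -4.62 ± 0.49 in p53-/- cells (24.6-fold lower, adjusted p = 0.000801), and -5.32 in p53-/- cells without sample B (adjusted p = 4.22e-05). With no offset, under which all knockout signals but that of p53-/- B lay, the values were -7.13 in MyoD-/- and -5.72 in p53-/- cells, so the size of the fold rests on the offset. Its MyoD-/- values lay at the 8.0th to 11.2th percentile, p53-/- values at the 12.5th to 42.9th and wild-type values at the 82.6th to 91.5th. The filter on low signals asks for 3 arrays above the 40th percentile, so 160375_at could pass only with wild-type arrays. A difference from wild type was thus built into its being tested. With no filter the adjusted p was 0.000383 in MyoD-/- and 0.0019 in p53-/- cells. MyoD-/- against p53-/- gave -0.79 ± 0.49 (adjusted p = 0.361), or -0.08 without p53-/- B. A second Car3 probe set, 111700_at on U74Bv2, did not pass the filter: it read 276.4, 80.7 and 79.3 in MyoD-/- samples, 86.5 on the p53-/- array, and 50.7, 57.2 and 59.7 in wild-type samples. It therefore showed none of the wild-type signal seen by 160375_at, and the probe sets disagree.

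Markers of muscle differentiation and of other cell types also differed between the genotypes, and in bulk RNA fewer cells of a type and less RNA per cell cannot be told apart. The 12 terminal differentiation markers on U74Av2, which include Myog, sarcomeric myosins, troponins and Acta1, summed to 2069 to 3284 in MyoD-/-, 3154 to 12341 in p53-/- and 30281 to 63759 in wild-type samples. Myog, the factor that starts terminal differentiation, read 291.0, 280.7 and 437.6 in MyoD-/- samples, 2612.5, 2746.4 and 254.5 in p53-/- samples, and 7278.1, 6890.9 and 3771.9 in wild-type samples. Among p53-/- samples, B had both the highest marker sum (12341, against 6342 in A and 3154 in C) and the highest Car3 and Gatm signals. The order of the marker sums was not kept throughout. In p53-/-, Gatm was lower in A (541.7) than in C (1224.9), and Eno3 was highest in A (20771.9). Wild type B had the highest sum (63759) and the highest Car3 and Pgam2 signals but the lowest Pygm (2220.1). MyoD-/- A had the lowest sum (2069) and the highest Gatm (167.0). Sample C of p53-/- had the lowest Myog and Pygm values and the lowest median signal of the arrays on U74Av2. The part of differentiating cells in the lower Car3, Pgam2, Pygm, Gatm and Eno3 was not tested.

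**Figure D4:**
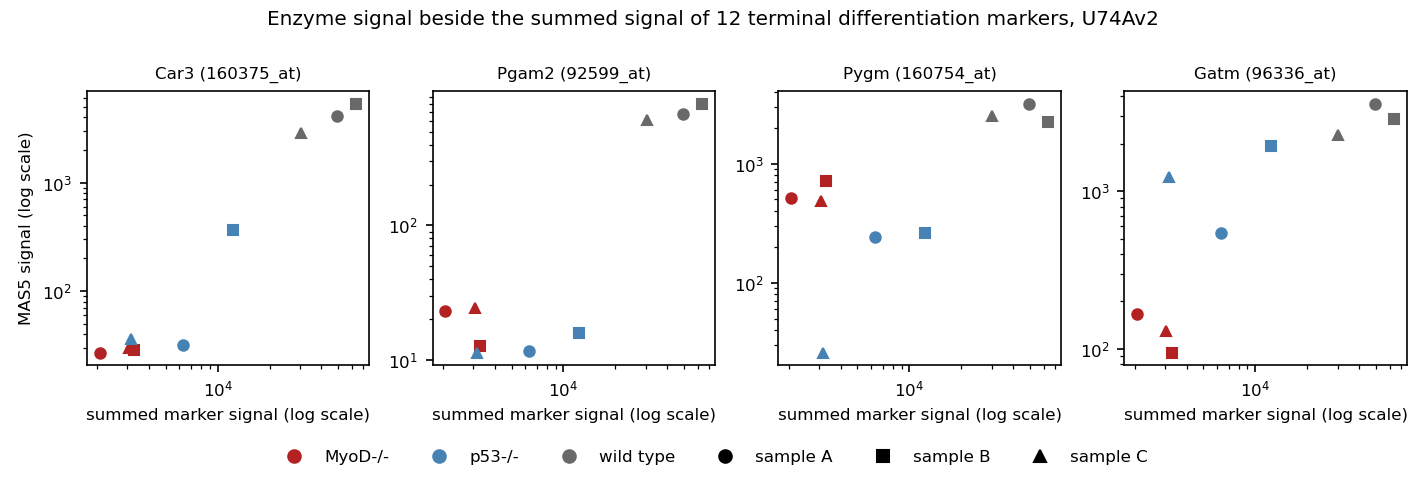
MAS5 signal of Car3, Pgam2, Pygm and Gatm against the summed signal of 12 terminal differentiation markers on the same U74Av2 array (both axes logarithmic), with colour for genotype and symbol for sample. Wild-type samples lie at the upper right in each panel, and p53-/- B lies apart from the other knockout samples for Car3. Of the p53-/- samples, C has a marker sum (3154) within the MyoD-/- range and A and B lie above it.

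The stated purity markers did not all match in level. Des, encoding desmin, averaged 194.7 ± 112.6 in MyoD-/-, 1382.9 ± 476.3 in p53-/- and 3669.3 ± 197.0 in wild-type samples (SD, n = 3 each), whereas Myf5 averaged 4330.7 ± 1469.2 in MyoD-/-, 5085.7 ± 897.6 in p53-/- and 726.4 ± 487.2 in wild-type samples. Met, encoding c-met, averaged 6728.1 ± 507.9 in MyoD-/- and 18067.2 ± 349.0 in wild-type samples by 117151_at on U74Bv2 (log2 -1.41 ± 0.12, adjusted p = 0.000149). By 100309_at on U74Av2, Met averaged 570.0 ± 171.4 in MyoD-/- and 1244.4 ± 232.0 in p53-/- samples (log2 -1.06 ± 0.22, adjusted p = 0.00965), and p53-/- against wild type gave 0.08 ± 0.22 (adjusted p = 0.872). Myod1, the gene deleted in MyoD-/- cells, read 4024.3 to 5352.3 there, 18504.4 to 24450.1 in p53-/- and 37439.6 to 45187.1 in wild-type samples, and whether its probe set 102986_at lies inside the deleted part is not known here.

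The 12 fibroblast markers summed to 33890 to 43765 in MyoD-/-, 10944 to 14187 in p53-/- and 14056 to 16302 in wild-type samples. Of the 6 tested members, 3 (Col1a1, Fbln2 and Twist2) were higher in MyoD-/- than in wild-type cells. Fbln2 alone read 14831.0 to 24646.7 in MyoD-/- and 360.6 to 912.9 in wild-type samples. The other 3, Col1a2 (log2 -0.07), Col3a1 (-0.24) and Pdgfra (-0.08), were not called. Dcn, Lum and Thy1 stayed at low signals in all 3 genotypes. Macrophage and leukocyte markers summed to 5726 to 7929 in MyoD-/-, 2166 to 2585 in p53-/- and 2146 to 2770 in wild-type samples, most of it Cd14, with Ptprc at 11.8 to 44.4 in MyoD-/-, 20.6 to 28.2 in p53-/- and 14.5 to 34.5 in wild type. Schwann and neural markers summed to 1747, 10740 and 15843 in MyoD-/- A, B and C, against 1435 to 1714 in p53-/- and 1435 to 1810 in wild-type samples. Gap43 was the main gene only in MyoD-/- B (9693.5) and C (14716.0). It read 553.2 in MyoD-/- A, 192.5 to 381.1 in p53-/- and 261.1 to 382.9 in wild-type samples. Smooth muscle markers summed to 13884 to 27251 in MyoD-/-, 3378 to 4979 in p53-/- and 9289 to 23883 in wild-type samples. Adipocyte markers summed to 1980 to 2646 in MyoD-/-, 1240 to 2090 in p53-/- and 1378 to 2944 in wild-type samples. Endothelial markers summed to 286 to 1024 in MyoD-/-, 522 to 989 in p53-/- and 436 to 721 in wild-type samples, so both lists overlapped. The part of these cells in the enzyme differences was not tested.

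Of the other genes of these pathways, 54 were tested in MyoD-/- against wild type, with 9 higher and 3 lower (22.2%, beside 13.0% of all genes), and 48 in p53-/- against wild type, with 5 higher and 1 lower (12.5%, beside 12.6% of all genes). In MyoD-/- against p53-/-, 4 of 48 were higher and 1 was lower (10.4%, beside 16.1% of all genes). None of the 3 tested genes of the creatine list (which holds Gamt, Slc6a8, Ckmt1 and Ckmt2) was called in any of the 3 comparisons.

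Of the glycolysis list, 7 of 18 tested genes were higher in MyoD-/- than in wild-type cells (38.9%, beside 6.14% of all genes called higher). None was lower and 11 were not called, with a median log2 fold change of 0.29 over the list. Triosephosphate isomerase, Tpi1, averaged 25192.7 ± 3552.2 in MyoD-/- and 14207.1 ± 459.9 in wild-type samples (SD, n = 3 each; log2 0.81 ± 0.11, adjusted p = 0.00117). Pfkl, a phosphofructokinase, changed by 0.89 ± 0.13 (adjusted p = 0.00164), the lactate exporter Slc16a3 by 1.76 ± 0.23 (adjusted p = 0.00168) and phosphoglycerate kinase, Pgk1, by 0.62 ± 0.11 (adjusted p = 0.00497).

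In p53-/- cells 4 of 16 glycolysis genes were higher than in wild type (25.0%, beside 6.06% of all genes called higher). None was lower and 12 were not called, with a median of 0.28. Without p53-/- A 1 gene was called. The 4 higher genes were Pgam1, the phosphofructokinase Pfkp (1.24 ± 0.25, adjusted p = 0.0120), the lactate transporter Slc16a1 (0.94 ± 0.20, adjusted p = 0.0148) and Pgk1 (0.45 ± 0.11, adjusted p = 0.0266). Against p53-/-, MyoD-/- cells had more Tpi1 (0.49 ± 0.11, adjusted p = 0.0177), Eno2 (the neuronal enolase, 1.16 ± 0.27, adjusted p = 0.0178) and Pfkl (0.54 ± 0.13, adjusted p = 0.0210) and less Slc16a1 (-1.08 ± 0.20, adjusted p = 0.00578). In that comparison 2 glycolysis genes were called without MyoD-/- A and 2 without p53-/- A.

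Myoglobin, Mb, the oxygen store of muscle, was lower in both knockouts. It averaged 30.8 ± 4.3 in MyoD-/- samples, 125.4 ± 167.0 in p53-/- samples and 1007.2 ± 494.6 in wild-type samples (SD, n = 3 each). Its log2 fold change against wild type was -3.36 ± 0.53 in MyoD-/- (adjusted p = 0.00231) and -2.72 ± 0.53 in p53-/- cells (adjusted p = 0.00966). The MyoD-/- signals, 26.4 to 35.0, lay under the offset of 66.98, as did all p53-/- signals but the highest, 318.2. That array carries the p53-/- mean, and the size of both changes rests on the offset. The probe set of Mb could pass the filter on low signals only with wild-type arrays. A difference from wild type was thus built into its being tested. Car5b, a mitochondrial carbonic anhydrase, was higher in MyoD-/- than in wild-type cells (log2 2.14 ± 0.19, adjusted p = 0.000193), so of the 6 genes tested in that list 1 rose and 1 fell.

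Among adenylate and AMP genes, Ak4, a mitochondrial adenylate kinase, was higher in MyoD-/- (log2 1.40 ± 0.31, adjusted p = 0.0167) and in p53-/- cells (1.23 ± 0.31, adjusted p = 0.0327) than in wild type. Prkab2, a regulatory subunit of the AMP-activated kinase, was lower in MyoD-/- cells (-1.11 ± 0.18, adjusted p = 0.00500), and Adssl1, the muscle adenylosuccinate synthase, was higher in MyoD-/- than in p53-/- cells (0.56 ± 0.16, adjusted p = 0.0470). In MyoD-/- against wild type 1 of these genes was called without MyoD-/- C, wild type A or wild type B. In p53-/- against wild type none was called without p53-/- B or C or wild type A or B, and in MyoD-/- against p53-/- none was called when any sample other than p53-/- B was left out. The glycogen list held 1 called gene of 14 in MyoD-/- against wild type, Stbd1, a glycogen-binding protein (-1.69 ± 0.39, adjusted p = 0.0181), which was lost without MyoD-/- B or wild type A. It held none of 13 in either comparison with p53-/-, where 2 were called for p53-/- against wild type without MyoD-/- A and 1 without MyoD-/- C.

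The genes whose profile was most like that of an enzyme were found by the root mean square difference between log2 values, each centred on its own mean over the 9 arrays of one chip type. For Car3 these were Myh3, embryonic myosin heavy chain (0.34), Tnnt3, a troponin (0.42), and Acta1, skeletal actin (0.46), beside a spread of Car3 itself of 2.46 on the same scale. For Pgam2 they were Sct (0.41), Cox6a2 (0.44) and Slc8a1 (0.46), and for Gatm Actn3 (0.45), Tpd52l1 (0.47) and Dll1 (0.55). Pygm was nearest to Igf2 (0.43), Cav3 (0.54) and Prss23 (0.59).

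Ak1 was nearest to Cdh13 (0.30), Ptp4a3 (0.31) and Phlda3 (0.35), and Phlda3 averaged 12469.1 in MyoD-/-, 2972.6 in p53-/- and 11612.4 in wild-type samples. Ampd3 was nearest to Pam (0.29), Ctsh (0.29) and Irgm1 (0.32), and Ctsh averaged 7166.9 in MyoD-/-, 982.5 in p53-/- and 2262.0 in wild-type samples. Eno3 was nearest to Macf1 (0.12), Thumpd3 (0.13) and Wfs1 (0.13), Ckb to Nap1l1 (0.11), Nsmaf (0.11) and Txndc17 (0.12), and Ckm on U74Cv2 to Dusp22 (0.15), Trim2 (0.18) and 6430571L13Rik (0.18), where the spreads of Eno3, Ckb and Ckm were 0.36, 0.29 and 0.32. These are descriptions over 9 arrays of 3 genotypes, which the arrays of one genotype share.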

How the data were processed

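Total RNA of MyoD-/-, p53-/- and wild-type mouse myoblasts was measured on 25 arrays of 3 Affymetrix chip types. The values deposited by the authors are MAS5 signals, an intensity per probe set on a linear scale, per the submitters' processing notes; its version and settings were not found in these sources. The arrays of a chip type have equal trimmed means, and the signals were used without further scaling. The median signal of an array was 464 to 565 (U74Av2), 730 to 777 (U74Bv2) or 454 to 545 (U74Cv2). Detection calls were not used.

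Groups came from the sample titles. For each chip type, log2(signal + offset) was fitted with limma 3.58.1 in R 4.3.3 (lmFit, eBayes with trend, genotype as the only term, all arrays of the chip type), with the 20th percentile of all signals as offset (66.98, 145.7 and 106.6). Probe sets above the 40th percentile of their array on at least 3 arrays were tested: 7890 of 12422 on U74Av2, 7869 of 12411 on U74Bv2 and 7877 of 11868 on U74Cv2, without control probe sets. The Benjamini-Hochberg adjustment ran over every probe set in the comparison, whichever the chip type, and calls were made at an adjusted p under 0.05. U74Bv2, with 1 p53-/- array, entered counts for MyoD-/- against wild type alone; the p53-/- array there is given as a value. Where a gene had several tested probe sets, the one of highest mean percentile stood for it. All fold changes include the offset, which shrinks those of weak signals. Symbols came from the platform annotation and were updated through RefSeq. The fit was tested on simulated data. Pairs of isoenzymes were compared by exact permutation tests over samples (scipy 1.17.1).

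Text names all 9 enzymes, up to 4 called genes per pathway list and comparison with the smallest adjusted p, the 3 nearest profiles per enzyme and 5 marker genes; further marker genes were named after their values were seen. The members and lists were chosen with earlier results of these data known. Alternatives were other offsets, filters, normalizations and adjustments, other ways to represent a gene, blocks for scan day, chip lot and replicate letter, and leaving out each sample.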

Additional observations from a re-analysis of the deposited data

Results flagged for a closer look

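The Ampd3 probe set 104671_at was flagged for its direct contrast of MyoD-/- with p53-/-, log2 3.23 ± 0.17 (SE, n = 3 each). Every MyoD-/- sample also lay above and every p53-/- sample below all wild-type samples. That position uses the same MyoD-/- and p53-/- arrays and is not further support for the contrast.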

How the results depend on the processing

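With 3 arrays a group the precision is limited, and the sizes of the Pgam2 and Car3 changes depend on the offset, since knockout signals lay under it. Their calls against wild type held in all alternatives run, but both probe sets needed wild-type arrays to pass the filter. The numbers of enzymes called stayed within 1.5 times the main count in all 25 alternatives of each comparison, and the isoenzyme differences kept their sign with no offset and after quantile normalization; the planned pairs of Eno3, Ak1, Ampd3 and Car3 with their partners were not run, since no partner had a single-symbol probe set tested on the same chip type. Over the 9 fits that leave out a sample, the enzymes called numbered 6 to 7 (MyoD-/- against wild type), 5 to 8 (p53-/- against wild type) and 3 to 4 (MyoD-/- against p53-/-). The letters A to C did not pair the samples (1 of 21 same-letter pairs had a correlation of deviations over 0.1, range -0.12 to 0.127); with the replicate block the counts were 7, 5 and 4, and the calls over all probe sets were 2167, 1394 and 1798, against 2514, 1599 and 2045 without it. Calls over all probe sets in p53-/- against wild type were 903 and 980 without wild type A and B and 918 and 1009 without p53-/- A and C, in MyoD-/- against wild type 1525 without wild type B, and in MyoD-/- against p53-/- 1315, 1356 and 1349 without MyoD-/- B, p53-/- A and p53-/- C. The estimated correlation within chip lots on U74Cv2 was negative.

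Signs turned only for values that were not called. Ckm 170247_r_at in MyoD-/- against wild type ran between -0.14 and 0.29 and Ckm 171149_r_at between -1.22 and 0.04 over the alternatives, with -0.14 without MyoD-/- B, -0.05 without MyoD-/- C and -0.12 without wild type A, and 0.04 without MyoD-/- B. Ak1 in MyoD-/- against wild type was -0.01 with scan day as a block and without MyoD-/- A. In p53-/- against wild type, Ckm 160175_at ran from -0.90 to 0.05 over the fits that leave out a sample, positive without p53-/- C, and Ckb 137242_f_at was -0.06 without p53-/- B and -0.09 without wild type B. In MyoD-/- against p53-/-, Ckm 160175_at ran from -0.21 to 0.75, negative without p53-/- C, and Ckm 171149_r_at ran from -0.48 to 0.79; it was -0.05 with a floor or no offset, -0.00 with a smaller offset, -0.03 after quantile normalization, -0.24 with scan day as a block and without MyoD-/- A, -0.48 without MyoD-/- C and -0.46 without p53-/- C.

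Counts for the pathway lists were small and moved more; the cause was not tested. In MyoD-/- against wild type, adenylate and AMP genes called numbered 1 with a filter at the 60th percentile or adjusted p under 0.01 and 1 to 2 without a sample, glycogen genes 2 after quantile normalization, 0 at 0.01 and 0 to 1 without a sample, and carbonic anhydrases with Mb 1 with the stricter filter. In p53-/- against wild type, adenylate and AMP genes numbered 0 with the stricter filter, no filter or 0.01, 2 by the smallest p and 0 to 1 without a sample, and glycogen genes 2 with adjustment within chip type, with the compared genotypes alone or with scan day as a block, 1 with the stricter filter and 0 to 2 without a sample. Glycolysis genes there numbered 2 with the stricter filter, 0 at 0.01 and 1 to 4 without a sample, and carbonic anhydrases with Mb 0 with the stricter filter and 2 by the smallest p. In MyoD-/- against p53-/-, the single adenylate and AMP gene was 0 with adjustment within chip type, without trend, with no filter, with the compared genotypes alone, after quantile normalization, with the replicate block, with scan day as a block and at 0.01, and 0 to 2 without a sample; creatine genes and carbonic anhydrases with Mb each numbered 1 by the smallest p, and glycolysis genes 1 at 0.01 and 2 to 5 without a sample.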
